A study of Rattus norvegicus with 8 samples.

Results

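Cartilage matrix transcripts were followed in the Achilles tendon as a set of 10 genes. They were chosen by name as constituents of the cartilage matrix, with earlier results of these data known. They are the collagen genes *Col2a1*, *Col9a1*, *Col9a2*, *Col9a3*, *Col10a1*, and *Col11a2*, the aggrecan gene *Acan*, the link protein gene *Hapln1*, and the matrilin genes *Matn1* and *Matn3*, that is, 10 of the 32883 genes of the deposited tables. All 10 had at least 1 read, and 6 held enough reads for the test between the groups (*Col2a1*, *Col9a2*, *Col9a3*, *Col11a2*, *Acan*, and *Hapln1*). The tissue was the right Achilles tendon of 8 young adult male Sprague-Dawley (SD) rats of wild-type genotype. In the 12 hours p.r. group, 4 rats ran on a treadmill for 1 hour and were killed 12 hours after it. In the naive control (NC) group, 4 rats stayed in their cages and were killed at the same time. Each rat gave 1 library of polyadenylate mRNA, so whole-tissue levels mix all cells of the dissected piece, and more cells of a type cannot be told apart from more RNA per cell.

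Cartilage is built on fibrils of type II collagen, a trimer of *Col2a1* chains, with type XI collagen in the core of the fibril and type IX collagen on its surface. Aggrecan, a large proteoglycan, is held on hyaluronan by link protein and gives the tissue its resistance to compression, while matrilins are adaptor proteins between fibrils and proteoglycans. Type X collagen is the classical product of hypertrophic chondrocytes next to mineralizing cartilage. Tendon is mainly type I collagen, but it is compressed where it wraps around bone, and it passes through fibrocartilage where it inserts into bone, so some of these genes are known from tendon as well. The chains of type XI collagen are also made in tissues without type II collagen.

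The total of counted reads ran from 7350509 to 12951397 per rat. The genes *Col1a1* and *Col1a2* of type I collagen and the tendon genes *Fmod*, *Tnmd*, *Thbs4*, *Kera*, *Scx*, and *Mkx* were read in every rat, so the labelled tissue had its defining markers. A few libraries, 3 in all, stood apart in genes that matter here. NC replicate 3 and 12 hours p.r. replicate 1 were the highest rats in bone genes, and 12 hours p.r. replicate 3 held 56658.5 CPM (the usual depth-scaled count, with library sizes adjusted by TMM) summed over 8 skeletal muscle genes, against 2063.68 to 10517.1 CPM in the other rats. The group contrasts that turn on these libraries are also given without them, and the list values without them were added after seeing the data.

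Promoters are shown for a gene that was near 0 in most rats, *Col10a1*, and for both genes of the aggrecan complex that were read in every rat, *Acan* and *Hapln1*. Each line holds the 250 bases before the annotated start of the gene, 5' to 3' on the strand of the gene, from RefSeq on the assembly GRCr8, where 7 of the 10 genes matched. The aligned reads were placed on another assembly, Rnor_6.0, and the windows carry no reads of these data. Capitals mark TATAAA or the SOX-type core ACAAAG on either strand. A further SOX-type core, ACAATG, was searched in the same way.
*Col10a1*, chr20:39737286-39737535, plus strand: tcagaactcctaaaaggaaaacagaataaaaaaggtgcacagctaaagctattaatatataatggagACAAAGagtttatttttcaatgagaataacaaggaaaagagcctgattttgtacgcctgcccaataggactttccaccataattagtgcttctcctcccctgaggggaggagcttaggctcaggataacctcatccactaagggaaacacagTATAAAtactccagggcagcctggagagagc
*Acan*, chr1:142390701-142390950, plus strand: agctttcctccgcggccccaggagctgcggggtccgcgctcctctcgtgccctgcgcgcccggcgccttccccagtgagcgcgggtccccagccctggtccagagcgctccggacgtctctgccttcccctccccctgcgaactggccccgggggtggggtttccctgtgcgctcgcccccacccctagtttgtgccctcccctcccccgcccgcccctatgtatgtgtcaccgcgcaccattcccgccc
*Hapln1*, chr2:22366717-22366966, plus strand: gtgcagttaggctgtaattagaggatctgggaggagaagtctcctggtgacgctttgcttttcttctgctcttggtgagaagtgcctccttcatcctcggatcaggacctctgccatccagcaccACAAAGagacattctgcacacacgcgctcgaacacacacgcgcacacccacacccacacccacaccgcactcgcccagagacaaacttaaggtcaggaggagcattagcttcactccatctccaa
The *Col10a1* window held TATAAA starting at position -31 from the annotated start and ACAAAG starting at -183, and its GC content was 41.6%. The *Hapln1* window held ACAAAG at -125 with a GC content of 54%, and the *Acan* window held none of the 3 motifs, with a GC content of 73.6%. Among all 33469 windows of this length, 12.9% held TATAAA, 16.3% held ACAAAG, and 11.1% held ACAATG on either strand. The windows of *Col9a1*, *Col9a2*, *Col11a2*, and *Matn3* held none of these letters.

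The levels of the 10 genes spanned a wide range when compared per length, as FPKM (fragments per kilobase of gene and per scaled library). The median over the 8 rats was 31.5 FPKM for *Col11a2*, 9.90 FPKM for *Acan*, 6.41 FPKM for *Hapln1*, and 1.599 FPKM for *Col2a1*. *Col9a3*, *Col9a2*, *Col9a1*, *Col10a1*, and *Matn3* followed at 0.702, 0.594, 0.0826, 0.0776, and 0.0423 FPKM, and the median of *Matn1* was 0. *Col11a2* was above *Acan* in 8 of 8 rats, and *Col9a2* was above *Col9a1* in 8 of 8. Each other step of this order did not hold in all 8 rats, and whether these neighbors differed was not tested. *Acan* was above *Hapln1* in 7 of 8 rats, *Hapln1* above *Col2a1* in 6 of 8, and *Col2a1* above *Col9a3* in 7 of 8.

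**Figure D1:**
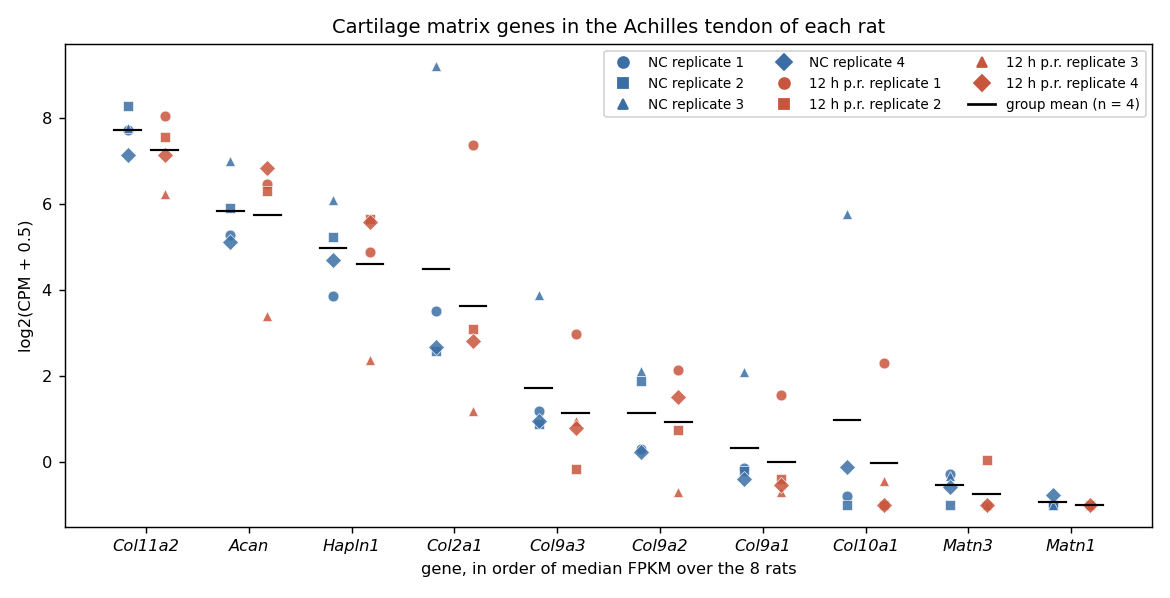
Each point is the level of a gene in a single rat, as log2(CPM + 0.5), for the 4 NC rats (blue) and the 4 rats at 12 hours p.r. (red), with marker shapes for replicate numbers, which do not link rats between groups, and black bars for group means. *Col2a1* and *Col10a1* are high in NC replicate 3 and 12 hours p.r. replicate 1, *Acan* and *Hapln1* are low in 12 hours p.r. replicate 3, and the groups overlap in all 10 genes.

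At 12 hours p.r. none of the cartilage matrix genes was separated from the NC group. Of the 6 genes tested, 0 were higher and 0 were lower when a 2-fold change and an adjusted p under 0.05 (edgeR, quasi-likelihood, Benjamini-Hochberg over 13937 genes) were both asked for, where the test called 0% of all genes in either direction. At an unadjusted p under 0.05, 0 of the 6 were called against 9.51% of all genes. DESeq2's Wald test at both thresholds also called 0 of the 4 genes that it gave an adjusted p, against 0.21% of all genes given one. *Col2a1* and *Col9a3* had none there and could not be called. Without DESeq2's cutoff on count outliers, a fit chosen after seeing the data, their DESeq2 adjusted p was 0.850 and 0.895. In 0 of the 6 did the groups fail to overlap in CPM, against 6.06% of all genes tested. Of the 6 log2 fold changes, 1 was above 0 and 5 were below, with a median of -0.27, while the median over all genes tested was 0.02. That direction turned without either of 2 single rats: the median was 0.54 without NC replicate 3 (5 above 0, 1 below) and 0.03 without 12 hours p.r. replicate 3 (3 above, 3 below). It stayed below 0 without any other single rat, from -0.72 to -0.16. With NC replicate 3 and 12 hours p.r. replicate 1 both left out it was -0.33 (2 above, 4 below).

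The spread among rats of the same group was wide in these genes, though not in them alone. The SD of log2(CPM + 0.5) over the 4 rats had a median of 0.97 over the 6 tested genes in the NC group and 1.43 at 12 hours p.r., where the medians over all genes tested were 0.20 and 0.23. All 6 lay above the upper quartile of all genes in both groups, which was 0.32 in the NC group and 0.39 at 12 hours p.r. The median SDs of 3 other lists were wider in at least 1 group: 2.11 in the NC group and 1.5 at 12 hours p.r. for bone matrix genes, 1.11 and 1.28 for osteoclast genes, and 1.72 and 2.45 for skeletal muscle genes. Of the 13937 genes tested, 5 had a larger SD than *Col2a1* in the NC group, and 24 had a larger SD at 12 hours p.r. *Col11a2* was the steadiest of the 6, with an SD of 0.46 in the NC group and 0.77 at 12 hours p.r., and still 1747 and 993 genes were more variable. Single rats carried much of this spread: the median SD of the NC group fell from 0.97 to 0.53 without replicate 3, and that of the 12 hours p.r. group fell from 1.43 to 0.57 without replicate 3 and to 1.07 without replicate 1.

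**Figure D2:**
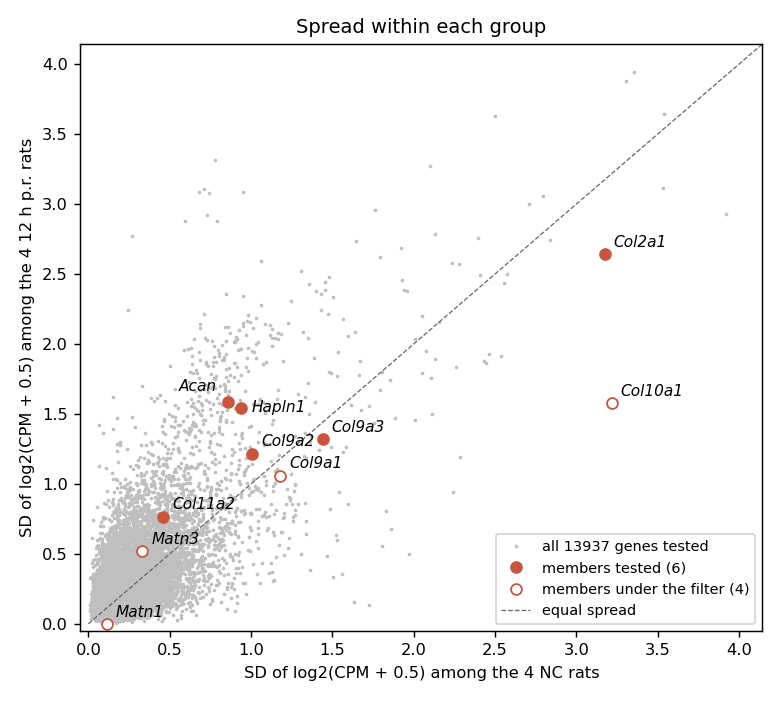
Each grey point is 1 of the 13937 genes tested, placed by its SD of log2(CPM + 0.5) among the 4 NC rats (x axis) and among the 4 rats at 12 hours p.r. (y axis); filled red points are the 6 cartilage matrix genes tested and open red points the 4 with too few reads in enough rats. *Col2a1*, at 3.17 and 2.64, lies far from the bulk of the genes in both groups, and *Col10a1*, at 3.22 and 1.58, mainly in the NC group.

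*Col2a1* (ENSRNOG00000058560), which encodes the chain of type II collagen, was the most uneven of the tested genes. It was at 10.8, 5.52, 594, and 5.86 CPM in NC replicates 1 to 4 and at 167, 8.04, 1.79, and 6.57 CPM in 12 hours p.r. replicates 1 to 4. NC replicate 3 alone held 74.3% of the CPM summed over the 8 rats and 12 hours p.r. replicate 1 a further 20.9%, so 1 rat of each group carried the gene. The remaining rats overlapped between the groups, from 1.79 to 10.8 CPM. The means were 154 ± 293 CPM in the NC group and 45.8 ± 80.7 CPM at 12 hours p.r. (SD, n = 4 rats each), with SDs larger than the means. The log2 fold change was -1.76 (SE 1.77, edgeR adjusted p = 0.782), and a 2-sided exact permutation test on log2(CPM + 0.5) gave p = 0.6.

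The sign of that difference was set by which rats were in the fit. Without NC replicate 3 the log2 fold change of *Col2a1* was 2.61 (SE 1.44, edgeR adjusted p = 0.611), and without 12 hours p.r. replicate 1 it was -4.81 (SE 1.97, edgeR adjusted p = 0.597, unadjusted p = 0.0399). With both left out it was -0.44 (SE 0.53, edgeR adjusted p = 0.846). With its default settings, DESeq2 gave no p-value for *Col2a1*, *Col9a3*, or *Col10a1*, because it sets aside genes in which the count of a single sample is an outlier.

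Type IX collagen is made of 3 different chains, and their genes differed in their pattern over the rats. *Col9a3* (ENSRNOG00000009531) followed *Col2a1*, at 1.76, 1.35, 14.2, and 1.44 CPM in NC replicates 1 to 4 and 7.38, 0.395, 1.43, and 1.22 CPM in 12 hours p.r. replicates 1 to 4. The same 2 rats were the highest, and the other 6 lay between 0.395 and 1.76 CPM with no separation of the groups. Its log2 fold change was -0.89 (SE 1.00, edgeR adjusted p = 0.808), and it was 0.75 without NC replicate 3 and -2.19 without 12 hours p.r. replicate 1.

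*Col9a1* (ENSRNOG00000012920) had 85 reads in all, 50 of them in NC replicate 3 and 19 in 12 hours p.r. replicate 1, with 1 to 5 reads in each other rat. It was under the filter on low counts. Without the filter its log2 fold change was -0.76 (SE 1.06, edgeR adjusted p = 0.834). *Col9a2* (ENSRNOG00000011502) differed from the other 2 chains in that a further pair of rats held it at similar levels, NC replicate 2 with 3.19 CPM and 12 hours p.r. replicate 4 with 2.35 CPM, beside 3.85 CPM in NC replicate 3 and 3.88 CPM in 12 hours p.r. replicate 1. The lowest rat was 12 hours p.r. replicate 3, with 1 read (0.119 CPM), and the log2 fold change was -0.15 (SE 0.81, edgeR adjusted p = 0.968).

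*Col10a1* (ENSRNOG00000051399), the gene of type X collagen, was close to a single-rat transcript. NC replicate 3 had 710 of its 752 reads, 53.6 CPM with a 95% Poisson interval of 49.7 to 57.7 CPM that covers counting error only. 12 hours p.r. replicate 1 had 34 reads (4.4 CPM, interval 3.05 to 6.15 CPM), and the other rats had between 0 and 5 reads. No read was counted in NC replicate 2 or in 12 hours p.r. replicates 2 and 4, where the same interval reached up to 0.452, 0.486, and 0.346 CPM. The gene was under the filter, and without the filter its log2 fold change was -3.63 (SE 1.85, edgeR adjusted p = 0.732). With NC replicate 3 and 12 hours p.r. replicate 1 also left out, it was -1.11 (SE 1.5).

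The genes of the 2 high rats differed in proportion. NC replicate 3 exceeded 12 hours p.r. replicate 1 by a factor of 12.2 in *Col10a1*, 3.56 in *Col2a1*, 1.92 in *Col9a3*, and 1.54 in *Col9a1*, as ratios of CPM, while in *Col9a2* the ratio was 0.992, with NC replicate 3 the slightly lower rat. Per length, *Col10a1* was at 20.1% of *Col2a1* in NC replicate 3 and at 5.86% in 12 hours p.r. replicate 1. *Col2a1* was at 7.08 times *Acan* per length in NC replicate 3 and at 2.92 times in 12 hours p.r. replicate 1, but at 0.0882 to 0.433 times in the other rats. Only in those 2 rats was *Col2a1* the higher of the pair.

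*Col11a2* (ENSRNOG00000000463), a chain of type XI collagen, was the most abundant of the 10 genes per length in 7 rats, all but NC replicate 3, which was not its highest rat. It was at 210, 310, 218, and 142 CPM in NC replicates 1 to 4 and at 264, 189, 75.3, and 141 CPM in 12 hours p.r. replicates 1 to 4. NC replicate 2 was the highest rat and 12 hours p.r. replicate 3 the lowest, and the groups overlapped. The means were 220 ± 69.2 and 167 ± 79.7 CPM (SD, n = 4 rats each), the log2 fold change was -0.40 (SE 0.36, edgeR adjusted p = 0.761), and the 2-sided exact permutation test gave p = 0.343. It stayed below 0 when each rat was left out in turn, between -0.71 and -0.15, the latter without 12 hours p.r. replicate 3. *Col11a1*, which encodes the partner chain, was at 0.659 to 1.47 times *Col11a2* per length in the 8 rats.

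*Acan* (ENSRNOG00000028992), the aggrecan gene, was read in every rat. It was at 38.2, 59.8, 128, and 34.3 CPM in NC replicates 1 to 4 and at 87.4, 78.3, 9.996, and 114 CPM in 12 hours p.r. replicates 1 to 4. NC replicate 3 was again the highest, but by 1.13 times over 12 hours p.r. replicate 4, and 12 hours p.r. replicate 3 was 3.43 times below the next lowest rat. The means were 65.2 ± 43.6 and 72.4 ± 44.3 CPM (SD, n = 4 rats each), with a log2 fold change of 0.15 (SE 0.65, edgeR adjusted p = 0.959). The sign was not stable: leaving out 12 hours p.r. replicate 4 gave -0.16 and leaving out NC replicate 3 gave 0.71, and it was 0.52 (SE 0.42, edgeR adjusted p = 0.688) without 12 hours p.r. replicate 3, the lowest rat, and 0.61 (SE 0.72, edgeR adjusted p = 0.842) without NC replicate 3 and 12 hours p.r. replicate 1.

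*Hapln1* (ENSRNOG00000032002), whose product links aggrecan to hyaluronan, was shaped like *Acan*. It was at 13.9, 36.9, 67.7, and 25.7 CPM in NC replicates 1 to 4 and at 28.9, 49.4, 4.64, and 47.6 CPM in 12 hours p.r. replicates 1 to 4. Per length it was at 0.450 to 1.02 times *Acan* in the 8 rats, a narrower range than either gene had alone. Its log2 fold change was -0.14 (SE 0.65, edgeR adjusted p = 0.961), ran from -0.41, without NC replicate 1, to 0.36, without NC replicate 3, and was 0.22 (SE 0.45, edgeR adjusted p = 0.886) without 12 hours p.r. replicate 3. Of the running rats, 12 hours p.r. replicate 1, the second highest in *Col2a1*, was below 12 hours p.r. replicates 2 and 4 in *Hapln1*.

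The matrilins were nearly unread. *Matn1* (ENSRNOG00000010932), whose product is a matrix protein of hyaline cartilage such as that of the trachea and the growth plate, had 1 read over the 8 rats, in NC replicate 4. NC replicate 3, with 7862 reads of *Col2a1*, had 0 reads of *Matn1*, where the 95% Poisson interval reached up to 0.279 CPM. *Matn3* (ENSRNOG00000056141), a matrilin of growth plate cartilage, had 14 reads, which were 4 in NC replicate 1, 4 in NC replicate 3, 2 in NC replicate 4, and 4 in 12 hours p.r. replicate 2. A difference between the groups was not detectable for either gene at this depth.

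**Figure D3:**
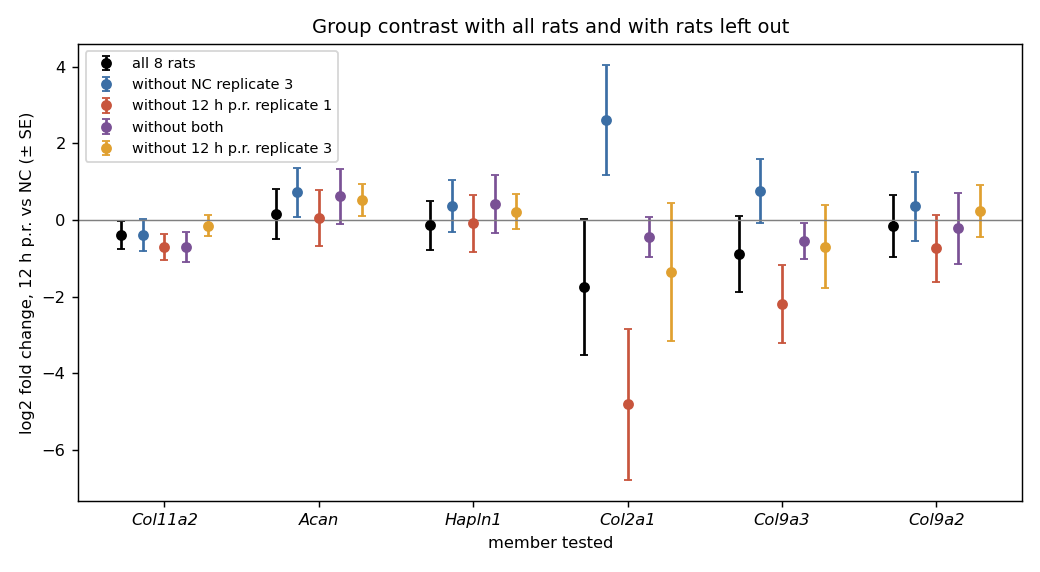
Points are log2 fold changes of 12 hours p.r. against NC by edgeR for the 6 genes tested, and bars are standard errors, with all 8 rats (black), without NC replicate 3 (blue), without 12 hours p.r. replicate 1 (red), without both (purple), and without 12 hours p.r. replicate 3 (yellow). The *Col2a1* value moves from -1.76 to 2.61 or -4.81 when 1 of the 2 high rats is left out and to -0.44 without both, while *Col11a2* stays below 0.

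In ranks, NC replicate 3 was the highest of the 8 rats in 6 of the 10 genes (*Col2a1*, *Col9a1*, *Col9a3*, *Col10a1*, *Acan*, and *Hapln1*). Of the 6 tested genes it was highest in 4, while it was highest in 7.57% of all genes tested. NC replicate 3 and 12 hours p.r. replicate 1 were the 2 highest rats in 5 of the 10 genes and in 3 of the 6 tested, against 3.18% of all genes tested. 12 hours p.r. replicate 3 was the lowest rat in 5 of the 6 tested genes, all but *Col9a3*, and in 19.3% of all genes tested. Each pattern is a property of single rats and lies within the groups, not between them.

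Markers of bone moved with the high rats. The 12 genes of osteoblasts and bone matrix summed to 2318.24 CPM in NC replicate 3, against 84.8 to 142 CPM in the other NC rats, and to 827 CPM in 12 hours p.r. replicate 1, against 38.7 to 519 CPM in the other running rats. All 7 of them that were tested had these 2 rats as their 2 highest, as did all 3 tested genes of osteoclasts and resorption. *Bglap*, the osteocalcin gene, was at 300.0 CPM in NC replicate 3 and 148 CPM in 12 hours p.r. replicate 1, and at most 0.790 CPM in the others. *Dmp1*, a gene of osteocytes, was at 307 and 63.0 CPM in the same rats and at most 12.3 CPM in the others, and *Ctsk*, the protease of osteoclasts, was at 634 and 461 CPM and at most 272 CPM. *Spp1*, which encodes osteopontin, and *Acp5* and *Mmp9*, genes of osteoclasts, were at 1377, 165, and 110 CPM in NC replicate 3 and at 504, 154, and 86.6 CPM in 12 hours p.r. replicate 1, and *Spp1* was also at 493 CPM in 12 hours p.r. replicate 4. Of the bone matrix genes, all 7 tested had a log2 fold change below 0 at 12 hours p.r., with a median of -0.93, and 0 had an unadjusted p under 0.05. The 3 tested osteoclast genes also had log2 fold changes below 0, with a median of -0.35. Both directions turned without NC replicate 3, where all 7 bone matrix genes (median, 0.83) and all 3 osteoclast genes (median, 0.71) were above 0. With 12 hours p.r. replicate 1 left out as well, 3 of 6 bone matrix genes tested were above 0 (median, -0.05). Of the 3 osteoclast genes, 1 was then above 0 and 2 were below (median, -0.29). Genes of marrow cells did not follow: 0 of the 3 tested, *Alas2*, *S100a9*, and *Mpo*, were highest in either rat (1 with a log2 fold change above 0, 2 below), and *Elane*, *Prtn3*, and *Ltf*, defining genes of granulocyte precursors and granules, were at most at 0.170, 0.129, and 0.476 CPM in any rat. Which tissue the transcripts came from was not tested.

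**Figure D4:**
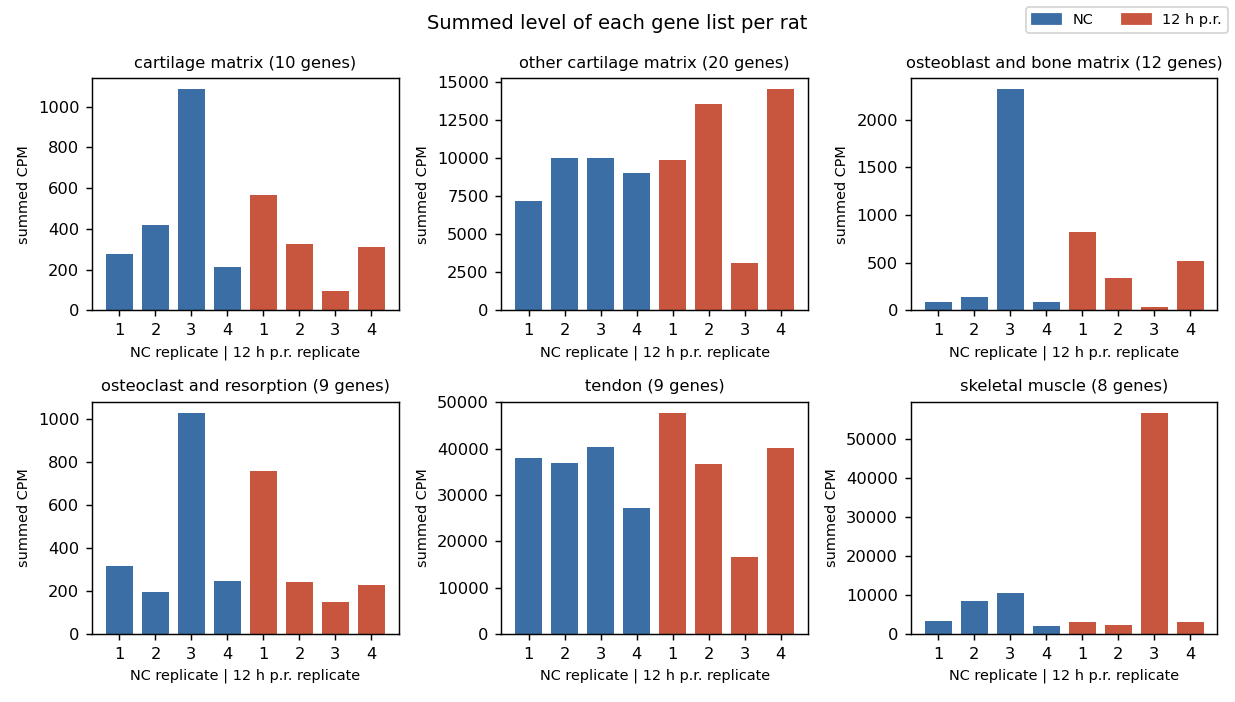
Bars give the CPM summed over the genes of a list in each rat, for NC replicates 1 to 4 (blue) and 12 hours p.r. replicates 1 to 4 (red), with the number of genes of the list in the table above each panel and axes starting at 0. The cartilage matrix, osteoblast, and osteoclast lists peak in NC replicate 3, followed by 12 hours p.r. replicate 1, while in 12 hours p.r. replicate 3 the cartilage and tendon lists are lowest and the muscle list is highest.

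Other genes of the cartilage matrix mostly had other rats as their highest. Of 20 such genes in the table, 17 were tested, 9 with a log2 fold change above 0 and 8 below (median, 0.13), and 0 had an unadjusted p under 0.05. Of the 17, 2 had NC replicate 3 and 12 hours p.r. replicate 1 as their 2 highest rats, against 3.18% of all genes tested. The most abundant per length were *Mgp*, which encodes matrix Gla protein, and *Chad* and *Clec3a*, which encode chondroadherin and a cartilage lectin. Their log2 fold changes were -0.32 (SE 0.22), 0.47 (SE 0.60), and 0.35 (SE 0.49), with edgeR adjusted p of 0.674, 0.835, and 0.848. The list summed to 3142.3 CPM in 12 hours p.r. replicate 3 and to at least 7184.54 CPM in every other rat. In that rat the 9 tendon genes also summed lowest, to 16523.5 CPM against 27281 to 47669.8 CPM in the others. *Col1a1* made up most of that sum, at 11092.2 CPM. *Col1a1*, *Col1a2*, and *Fmod* were lowest in that rat, but the other tendon genes were not. *Scx*, at 45.2 CPM there, was above every NC rat (20.3 to 43.9 CPM). The low values of *Acan* and *Hapln1* in that rat thus stood beside a low tendon sum and high muscle genes, and the part of these in the result was not tested.

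Regulators of chondrocytes ranged in mean level over the 8 rats from 0.122 FPKM (*Ihh*) to 12.6 FPKM (*Pth1r*). Of 11 in the table, 8 were tested, 6 with a log2 fold change above 0 and 2 below, 0 at an unadjusted p under 0.05. NC replicate 3 and 12 hours p.r. replicate 1 were the 2 highest rats in 1 of the 8, *Pth1r* (43.0 and 36.8 CPM), against 3.18% of all genes tested. The 3 most abundant per length, the parathyroid hormone receptor gene *Pth1r*, the ubiquitin ligase gene *Wwp2*, and the transcription factor gene *Trps1*, had log2 fold changes of 0.18 (SE 0.28), 0.27 (SE 0.16), and 0.36 (SE 0.31), with edgeR adjusted p of 0.871, 0.636, and 0.749. *Sox9*, the transcription factor that drives *Col2a1* and *Acan* in chondrocytes and was picked here after its values were seen, was at 3.69, 8.58, 6.12, and 6.12 CPM in NC replicates 1 to 4 and 4.14, 6.46, 2.02, and 4.41 CPM in 12 hours p.r. replicates 1 to 4. NC replicate 3 was not the highest rat in *Sox9*, and the groups overlapped. Of the regulators under the filter, *Ihh* and *Runx3* had NC replicate 3 and 12 hours p.r. replicate 1 as their 2 highest rats, while *Nkx3-2* did not. *Ihh* was at 1.51 and 0.388 CPM in those rats and *Runx3* at 0.680 and 0.647 CPM, on 26 and 22 reads in all.

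Among the tendon genes, 3 of the 9 tested had an unadjusted p under 0.05, as had 9.51% of all genes, and 0 had an adjusted p under 0.05. The former were *Scx*, *Mkx*, and *Thbs4*, with log2 fold changes of 0.62 (SE 0.22), 0.78 (SE 0.27), and 0.56 (SE 0.23), and edgeR adjusted p of 0.452, 0.452, and 0.506. The 3 most abundant, *Col1a1*, *Col1a2*, and *Fmod*, had log2 fold changes of -0.11 (SE 0.36), 0.39 (SE 0.31), and -0.06 (SE 0.33). The tendon list had 4 log2 fold changes above 0 and 5 below, and 8 above and 1 below without 12 hours p.r. replicate 3. In 1 of the 9 the groups did not overlap, as in 6.06% of all genes. Of the 8 muscle genes, led by *Mylpf*, *Acta1*, and *Tnnc2*, 7 were above 0 and 1 below (median, 1.45), but all 8 were below 0 without 12 hours p.r. replicate 3 (median, -1.12), with 0 of the 8 in the fit of all rats at an unadjusted p under 0.05. The 6 adipocyte genes, led by *Fabp4*, *Adipoq*, and *Cidec*, were 2 above 0 and 4 below, also with 0 at that p, and summed to 2736.02 to 6688.37 CPM, with neither of the 2 rats highest in cartilage genes at either end.

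The genes outside the set whose levels over the 8 rats were nearest to its median profile included genes of bone. Each gene's log2(CPM + 0.5) was centered on its mean, and the root mean square (RMS) difference from the median profile of the 10 genes was taken for 13955 genes with at least 1 CPM on average. The 10 genes themselves lay from 0.37 (*Col9a1*) to 1.88 (*Col2a1*) from this profile, so nearness to it is not nearness to each of them. The nearly unread *Matn1* and *Matn3* also entered the median. Among the 10 nearest were *Ctsk* (RMS difference, 0.28), *Runx2* (0.30), *Ifitm5* (0.31), *Aldh1l2* (0.32), *Cd84* (0.35), *Tm4sf19* (0.36), *Cpz* (0.37), *Samhd1* (0.38), and *Galnt3* (0.38). *Runx2* and *Ifitm5* are genes of the osteoblast lineage and *Ctsk* of osteoclasts, and all 3 were in the lists of bone genes. *Runx2* was at 11.03 CPM in NC replicate 3, 5.69 CPM in 12 hours p.r. replicate 1, and 1.19 CPM in 12 hours p.r. replicate 3, and its log2 fold change was -0.61 (SE 0.69, edgeR adjusted p = 0.807). This likeness is a description over 8 rats and carries no test.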

How the data were processed

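The right Achilles tendons of 4 NC rats and 4 rats at 12 hours p.r. were sequenced as stranded mRNA libraries. The authors used HISAT2 2.1.0 for alignment to Rnor_6.0 and featureCounts 1.6.3 for counting. The deposited counts are unnormalized reads for each Ensembl gene in each rat. How multi-mapping reads were counted, and whether counting used the strand, is not given in the sources used here. The authors' FPKM values equal counts divided by gene length and by the size factors of DESeq2 (checked; largest gap, 2.85e-10%). Tools and build are as named in the submitters' processing notes. A further deposited table holds the authors' own DESeq2 1.30.1 comparison (fold changes and p-values) and was not used.

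Counts were filtered with filterByExpr, scaled by TMM, and tested with the quasi-likelihood test of edgeR 4.0.16 in R 4.3.3, adjusting p by Benjamini-Hochberg across the 13937 genes retained. The filter removed *Col9a1*, *Col10a1*, *Matn1*, and *Matn3*, for which values without the filter are given. The SE was taken from the F statistic. DESeq2 1.42.0 and limma 3.58.1 gave alternatives. All rats entered 1 fit. Single genes were compared by exact permutation of the 8 rats (smallest p, 0.0286). Separate rats are the replicates. Intervals cover counting error only. The fits were tested on simulated data before use. Some listed genes had no row under their symbol and were not analysed here.

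The 10 genes and all lists were chosen with earlier results of these data known. By the rule for names, the text gives all 10 genes, of each other list the 3 with the highest mean FPKM and any with an unadjusted p under 0.05, and the 10 genes nearest in profile, of which 1 is not reported here. Other names were chosen after their values were seen.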

Additional observations from a re-analysis of the deposited data

Results flagged for a closer look

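In 39 groups of 4 rats (each of the 10 genes, the summed lists, and the total counts, in either group), a single rat was searched for that lay far from the other 3 by Dixon's criterion at the 0.05 level. It was found in 11. Chance finds it in about 1 in 20 groups, but the groups share rats, and in *Matn1* and *Matn3* the other 3 rats are tied at 0, so that any read meets the criterion. All values here are log2(CPM + 0.5). NC replicate 3 lay above the other NC rats in *Col2a1* (9.215, next 3.501), *Col9a1* (2.096, next -0.1507), *Col9a3* (3.878, next 1.179), and *Col10a1* (5.758, next -0.1127). It also lay above them in the summed osteoblast and bone matrix genes (11.18, next 7.155).

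12 hours p.r. replicate 1 lay above the other running rats in *Col9a1* (1.565, next -0.3894) and *Col10a1* (2.293, next -0.4383). 12 hours p.r. replicate 3 lay below them in *Acan* (3.392, next 6.299) and above them in the summed skeletal muscle genes (15.79, next 11.59). *Matn1* in NC replicate 4 (-0.7736, others -1) and *Matn3* in 12 hours p.r. replicate 2 (0.03836, others -1) rest on 1 and 4 reads, with 0 in the other rats of the group. The total counts held no such rat.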

How the results depend on the processing

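No gene tested passed a fold change of at least 2 with an adjusted p under 0.05 under the alternatives run, of which most tested 6 of the 10 genes and others 7, 8, or 10. These were DESeq2 (with and without its cutoff on count outliers, the latter chosen after seeing the data), robust edgeR, relative log expression and upper-quartile factors, 2 other filters, limma on log2(FPKM + 1) and log2(FPKM + 0.1), the replicate block, other thresholds, each rat left out, and NC replicate 3 left out together with 12 hours p.r. replicate 1. The median log2 fold change of -0.27 ran from -0.72 to 0.54 without 1 rat and was -0.75 over all 10 genes without a filter. The number with an unadjusted p under 0.05 was 0, and 0 to 1 without 1 rat (*Col2a1* without 12 hours p.r. replicate 1). With 1 rat left out, the median SD ran from 0.53 to 1.10 in the NC group and from 0.57 to 1.65 at 12 hours p.r. Over all genes, DESeq2 called 29 at both thresholds and edgeR 0. For DESeq2 the counts of 7 and 10 genes are of unadjusted p-values. With its cutoff it gave an adjusted p for 4 of the 10 genes, so the others could not be called there.

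Signs turned without single rats in *Col2a1* (-4.81 to 2.61), *Col9a2* (-0.74 to 0.36), *Col9a3* (-2.19 to 0.75), *Acan* (-0.16 to 0.71), and *Hapln1* (-0.41 to 0.36). *Acan* was at -0.014 and -0.087 with limma at pseudocounts of 1 and 0.1, and *Hapln1* at 0.41 without NC replicate 3 and 12 hours p.r. replicate 1. The causes were not tested.

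The replicate numbers did not pair the rats: the correlations of same-numbered rats' deviations over genes were 0.07, -0.20, 0.13, and 0.09, and 1 of 4 running rats correlated best with its own number. With the replicate number as a block, *Col2a1* was at 0.086 (SE 1.97) and no call changed. Depth limits *Matn1*, *Matn3*, *Col9a1*, and *Col10a1*, for which a few reads decide the value in most rats.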

Other observations

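Nearest neighbors were also taken for 2 single genes, a choice made after the values were seen. Over the 8 rats and 13961 candidate genes, the 5 genes nearest to *Col2a1* in centered log2(CPM + 0.5) were *Ibsp* (RMS difference, 0.69), *Mmp13* (0.87), *Dmp1* (0.96), *Col10a1* (0.97), and *Mmp9* (0.97), genes of bone matrix, hypertrophic cartilage, and matrix resorption. *Mmp13*, the collagenase gene, was at 111 CPM in NC replicate 3 and 50.7 CPM in 12 hours p.r. replicate 1, and at most at 0.659 CPM in the other rats.

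The genes nearest to *Acan* were different ones, and none of the first 10 was among the 10 nearest to *Col2a1*. They were led by *Scrg1* (0.35), *Hapln1* (0.38), *Clec3a* (0.41), *Ppp1r1b* (0.41), *Chad* (0.42), and *Comp* (0.43). *Comp*, which encodes cartilage oligomeric matrix protein, was at 630, 1362, 1194, and 605 CPM in NC replicates 1 to 4 and at 1348, 2029, 238, and 2134 CPM in 12 hours p.r. replicates 1 to 4. In these 6 genes the lowest rat was 12 hours p.r. replicate 3, and NC replicate 3 was highest only in *Hapln1*. Both neighbor lists are descriptions over 8 rats that share their libraries.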
